A study of Mus musculus with 8 samples.

Results

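The levels of 6 liver microRNAs (miRNAs) known from fatty-liver injury and p53 stress were followed across 8 mouse libraries. They were mmu-miR-21a-5p, mmu-miR-21a-3p, mmu-miR-34a-5p, mmu-miR-34c-5p, mmu-miR-221-3p and mmu-miR-222-3p, where mmu stands for mouse and is left out from here on. They were picked by name, as both arms of the miR-21a hairpin, a pair of miR-34 paralogs and the miR-221 and miR-222 pair. All 6 had a row in the count table of 443 mature sequences, of which 377 carried an established name. The samples were livers of male mice of the inbred strain C57BL/6J, 10 to 11 weeks of age. For 2 weeks the mice had eaten a normal diet (chow, 4 samples) or a diet rich in fructose (HFrD, 4 samples). Of the calories in HFrD, per the labels, fat gave 10%, carbohydrate 70% and protein 20%. The makeup of the chow is not given there, so fructose and other differences between the diets cannot be told apart. The title of the study concerns nonalcoholic fatty liver disease caused by fructose, and the comparison of diets asks here whether these miRNAs differ after 2 weeks. Replicate numbers in the labels run from 1 to 4 in each diet, and whether each stands for a separate mouse is left unsaid. The p-values therefore measure only the spread between these samples, which may be technical. Liver fat and serum enzymes were not analysed here.

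A miRNA is cut from a hairpin precursor, and each arm of the hairpin (5p or 3p) can be loaded into a silencing complex. The loaded strand pairs with messenger RNAs mainly through its seed, bases 2 to 8 from its 5′ end. miR-21 is one of the most abundant miRNAs of many tissues and rises in injured and fibrotic liver. miR-34a is transcribed by p53 after DNA damage or metabolic stress and represses Sirt1, while miR-34c comes from a separate p53-bound locus used mainly in testis and ciliated epithelium. miR-221 and miR-222 share a precursor transcript, repress the cell-cycle inhibitor Cdkn1b and are raised in liver fibrosis and liver cancer.

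The 6 mature sequences, as the deposited table gives them, are shown because their seeds set which of them can share targets. Capitals mark the seed.
mmu-miR-21a-5p: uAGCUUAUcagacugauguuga
mmu-miR-21a-3p: cAACAGCAgucgaugggcuguc
mmu-miR-34a-5p: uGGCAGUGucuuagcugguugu
mmu-miR-34c-5p: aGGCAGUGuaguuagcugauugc
mmu-miR-221-3p: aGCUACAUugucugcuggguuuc
mmu-miR-222-3p: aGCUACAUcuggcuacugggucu

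The 2 miR-34 members have the same seed and lie 5 edits apart over their whole length. miR-221-3p and miR-222-3p are identical over their first 8 bases and are also 5 edits apart. Apart from these pairs, no sequence in the table lay within 5 edits of any of the 6. The seed of miR-21a-5p occurred in no other sequence of the table, and neither did that of miR-21a-3p. One further sequence, miR-449a-5p, a miRNA of ciliated cells, holds the miR-34 seed:
mmu-miR-449a-5p: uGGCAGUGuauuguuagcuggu

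In the RefSeq annotation of GRCm38.p6 the miR-21a precursor lies at chr11:86584067-86584158 on the minus strand. GENCODE M21 places it within an exon of the protein-coding gene Vmp1, in its untranslated part and on the same strand. Mir34a lies at chr4:150068454-150068555 on the plus strand and runs into an exon of Gm37795. Mir34c lies at chr9:51103034-51103110 on the minus strand, opposite an intron of Btg4. Mir221, at chrX:19146294-19146388, and Mir222, at chrX:19146893-19146971, both lie on the minus strand with 504 bases between them and overlap no other annotated gene.

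The values are raw tag counts, from 1120035 to 1638036 per library. Levels are given as counts-per-million (CPM) over library sizes scaled by the trimmed mean of M-values (TMM), and a single count was worth 0.628 to 0.890 CPM. Values below 2 were left blank in the deposited table and are read as 0. On the first principal component, with 37.4% of the variance, chow replicate 4 stood apart at −5.14, against −1.69 to −0.52 for the other chow libraries and 1.497 to 2.69 for HFrD, so that this component separated the diets. The hepatocyte miRNA miR-122-5p was the third most abundant sequence of the table. The hepatocyte list summed to 615774 to 704210 CPM in chow and 581254 to 627727 CPM in HFrD. In the edgeR test described below, 1 of its 5 miRNAs, miR-122-3p, was called as lower in HFrD (adjusted p = 0.0110). Of all miRNAs tested, 3.53% were called as lower. Both arms of the endothelial miR-126a summed to 7437 to 10079 CPM in chow and 5890 to 6863 CPM in HFrD. These sums did not overlap, as was so for 14.1% of all miRNAs tested singly. The 3p arm made up most of them, and was called as lower in HFrD (adjusted p = 0.0123, edgeR). The 5p arm alone overlapped, with 252 to 310 CPM in chow and 233 to 299 CPM in HFrD. Both arms of the myeloid miR-223 summed to 1.59 to 11.6 CPM in chow and 5.12 to 9.43 CPM in HFrD. The other leukocyte list had 14.0 to 32.9 CPM in chow and 21.4 to 25.0 CPM in HFrD. For stellate cells and fibroblasts the range was 4472 to 5016 CPM in chow and 3830 to 5240 CPM in HFrD, and for biliary cells (4 of 5 markers in the table) 515 to 743 and 450 to 640 CPM. The erythroid list had 76.4 to 87.9 CPM in chow and 65.3 to 137 CPM in HFrD. Muscle markers had 541 to 736 and 550 to 633 CPM, and neuroendocrine markers 250 to 289 and 200 to 259 CPM. The part of cell makeup in the levels that follow was not tested.

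None of these miRNAs was called as different between the diets. Enough counts for a test were found for 4 of the 6. The quasi-likelihood test of edgeR called 0 of these 4 at an adjusted p of 0.05, against 5.88% of all 170 miRNAs tested (2.35% higher and 3.53% lower in HFrD). At an unadjusted p under 0.05 the count was also 0 of 4, against 23.5% of all tested, and DESeq2 called 0 of the 3 to which it gave an adjusted p (miR-21a-5p, miR-34a-5p and miR-221-3p). The diets overlapped in CPM for each of the 4, whereas 14.1% of all miRNAs tested had groups that did not overlap. Their log2 fold changes, HFrD against chow, ran from −0.23 to 0.10 with a median of 0.04, beside a median of 0.01 over all 170. Since these are bulk samples, fewer cells of a type and less RNA per cell cannot be told apart.

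miR-21a-5p, the injury-linked guide strand, was the second most abundant of the 443 sequences. Its counts were 228197, 224613, 195044 and 233083 in chow replicates 1 to 4, and 216661, 227704, 353356 and 243816 in HFrD replicates 1 to 4. On the TMM scale these were 181702, 190689, 151646 and 207375 CPM in chow, and 138752, 195002, 222037 and 184174 CPM in HFrD. HFrD held both the lowest library, replicate 1, and the highest, replicate 3, so that the chow range lay wholly inside the HFrD range. Chow averaged 182853 ± 23366 CPM (SD, n = 4), and HFrD averaged 184991 ± 34696 CPM (SD, n = 4). HFrD against chow gave a log2 fold change of 0.02 in edgeR, with an SE of 0.12, an adjusted p of 0.927 and a 95% interval from −0.25 to 0.28, or from 0.843-fold to 1.21-fold. By p-value it ranked 164th of the 170.

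As a share of all counts, miR-21a-5p took 17.5% ± 1.96 (SD, n = 4) of a chow library and 19.2% ± 2.56 (SD, n = 4) of an HFrD library. The shares ran from 14.6% to 18.5% in chow and from 15.6% to 21.6% in HFrD. With library totals in place of TMM, edgeR gave 0.13 (SE 0.096, adjusted p = 0.397), while the median of all tested miRNAs shifted to 0.13 as well. Counting noise alone would give a coefficient of variation of 0.213% in chow and 0.196% in HFrD, and the observed one was 12.8% and 18.8%. The spread between libraries therefore set the precision for this miRNA and not its depth. Its SE of 0.12 lay below the median SE of 0.18 over all 170, but above the median of 0.098 in the top quartile by abundance. The direction itself depended on single libraries, since it was −0.07 when chow replicate 3 was left out, −0.01 when HFrD replicate 2 was, and −0.09 when HFrD replicate 3 was.

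**Figure D1:**
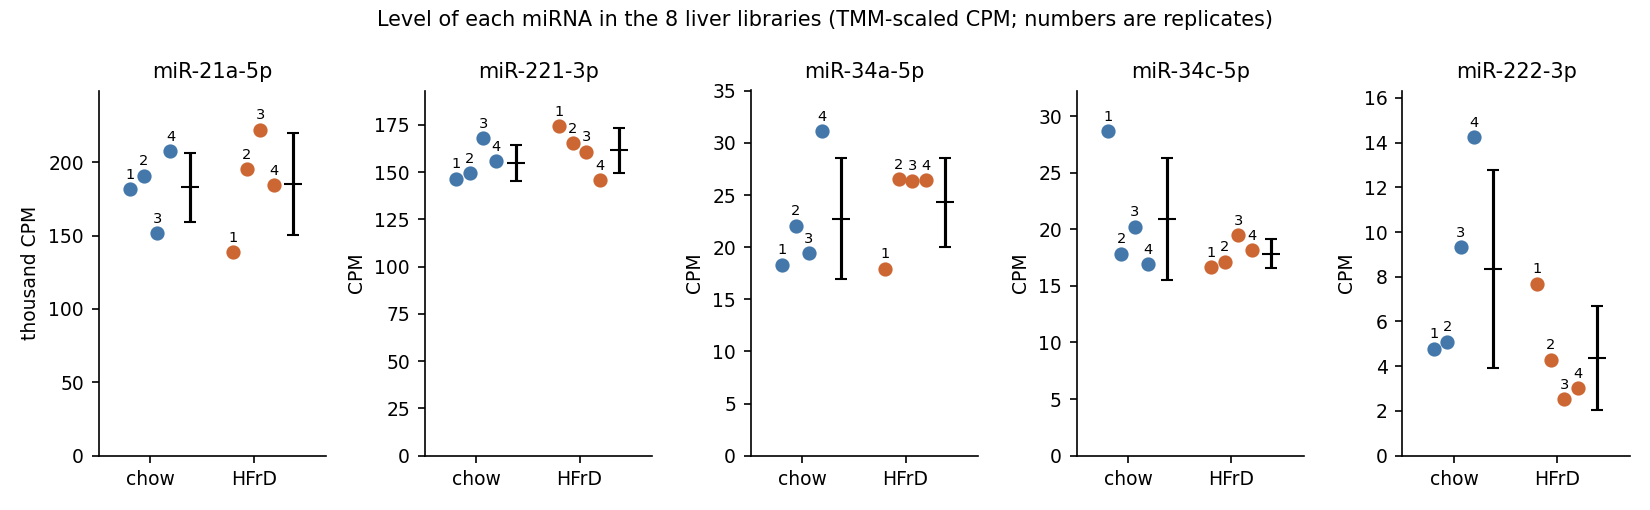
TMM-scaled CPM of 5 miRNAs in each library (vertical axes from 0, with the unit on each panel), with replicate numbers beside the points and the mean ± SD of each diet as a black bar. The chow and HFrD points overlap in each panel, and miR-34a-5p has 3 HFrD points between 26.4 and 26.5 CPM and 1 at 17.9 CPM.

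The other arm of the same hairpin, miR-21a-3p, was almost absent from the table. It had 2 counts in chow replicate 4 and none listed in the other 7 libraries, beside at least 195044 counts of the 5p arm in each. In chow replicate 4 the 3p arm made up 0.000858% of both arms (exact 95% binomial interval from 0.000104% to 0.0031%, counting error only). A library without a listed count may still have held 1, because values below 2 were left out. Over all libraries the sum was 1922474 counts of the 5p arm and 2 of the 3p arm.

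This was the lowest minor-arm share of the 68 hairpins that had both arms in the table and at least 1 arm tested. The next was miR-192, another abundant liver miRNA, with 0.00105% (10 of its counts on the 3p arm), and the median hairpin had 2.76%. Hairpins without a listed minor arm, such as let-7g (4.01% of all counts on its 5p arm), are outside this ranking. Among the 6 of these 68 hairpins with over 100000 counts on the major arm, the others had more. The minor arm was 0.116% for miR-122, 0.118% for miR-148a, 0.0448% for miR-30a and 0.00484% for let-7i. No diet difference can be given for miR-21a-3p, since both groups were at or near the smallest listed value.

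**Figure D2:**
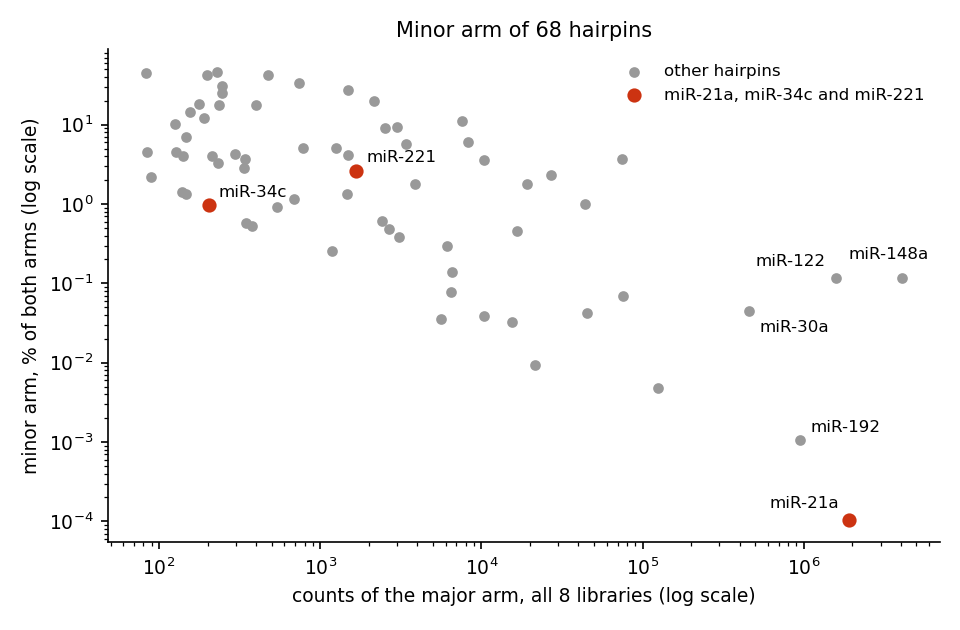
Share of the less abundant arm (vertical axis, % of the counts of both arms, log scale) against the counts of the more abundant arm summed over 8 libraries (horizontal axis, log scale) for 68 hairpins, with those of miR-21a, miR-34c and miR-221 in red. miR-21a lies lowest, below miR-192, while miR-122 and miR-148a at like counts lie near 0.1%.

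miR-34a-5p, the p53 target, was a low-abundance miRNA, 116th of 443 by mean CPM. Its counts were 23, 26, 25 and 35 in chow, with 28, 31, 42 and 35 in HFrD. These equal 18.3, 22.1, 19.4 and 31.1 CPM in chow and 17.9, 26.5, 26.4 and 26.4 CPM in HFrD. Chow replicate 4 was the highest of the 8 libraries and HFrD replicate 1 the lowest, with the other 3 HFrD libraries above the other 3 chow libraries. Chow averaged 22.7 ± 5.82 CPM (SD, n = 4), and HFrD averaged 24.3 ± 4.26 CPM (SD, n = 4). HFrD against chow gave a log2 fold change of 0.10 in edgeR, with an SE of 0.24, an adjusted p of 0.801 and a 95% interval from −0.40 to 0.59, or up to 1.51-fold higher. Without chow replicate 4 it was 0.25 (adjusted p = 0.600), and without HFrD replicate 1 also 0.25 (adjusted p = 0.579), both with edgeR. Each of the other 6 omissions lowered it, to 0.00 (adjusted p = 0.988) without chow replicate 1 and 0.03 (adjusted p = 0.949) without chow replicate 3. With library totals it was 0.22 (adjusted p = 0.557, edgeR). At 27.3 counts per chow library, counting noise alone gives a coefficient of variation of 19.2%, next to the 25.6% observed.

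miR-34c-5p, the paralog from the miR-34b and miR-34c locus, was found at nearly the same level, 127th of 443. Its counts were 36, 21, 26 and 19 in chow, with 26, 20, 31 and 24 in HFrD. On the CPM scale chow held 28.7, 17.8, 20.2 and 16.9 and HFrD held 16.7, 17.1, 19.5 and 18.1. Chow replicate 1 stood above the other 7 libraries, and these 7 lay between 16.7 and 20.2 CPM. Chow averaged 20.9 ± 5.36 CPM (SD, n = 4), and HFrD averaged 17.8 ± 1.25 CPM (SD, n = 4). HFrD against chow gave a log2 fold change of −0.23 in edgeR, with an SE of 0.23, an adjusted p of 0.523 and a 95% interval from −0.72 to 0.26. Without chow replicate 1 it was −0.04 (adjusted p = 0.916, edgeR). The coefficient of variation in HFrD, 7.01%, was below the 19.9% that counting noise alone would give on average.

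Within the miR-34 seed group, the CPM ranges of miR-34a-5p and miR-34c-5p overlapped in either diet. The ratio of their counts was 0.639, 1.24, 0.962 and 1.84 in chow and 1.08, 1.55, 1.35 and 1.46 in HFrD. It averaged 1.17 ± 0.511 (SD, n = 4) and 1.36 ± 0.205 (SD, n = 4). Within a library miR-34a-5p thus had more counts than miR-34c-5p in 4 of 4 HFrD libraries and in 2 of 4 chow libraries, without a test. miR-449a-5p was listed in 2 libraries, with 3 counts in HFrD replicate 2 and 4 counts in HFrD replicate 4, and in no chow library. Without a filter edgeR gave it a log2 fold change of 3.91 (SE 2.02, unadjusted p = 0.0538, adjusted p = 0.463). DESeq2 gave 3.17 (SE 2.34, unadjusted p = 0.175) and no adjusted p. Both values rest on these few counts. Chow livers held 43.6 ± 4.49 CPM (SD, n = 4) of the 3 sequences together, and HFrD livers 43.6 ± 6.04 CPM (SD, n = 4). The passenger arm miR-34c-3p had 2 counts in chow replicate 2 and none listed elsewhere. Neither arm of miR-34b nor the other arm of miR-34a had a row under its name in the count table.

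miR-221-3p was 56th of 443. Its SD over the 8 libraries, 0.09 on the log2 CPM scale, was the smallest of the 4 tested, beside 0.21 for miR-21a-5p, 0.26 for miR-34a-5p and 0.22 for miR-34c-5p. Its counts were 184, 176, 216 and 175 in chow, with 272, 193, 256 and 193 in HFrD. As CPM these were 147, 149, 168 and 156 in chow, with 174, 165, 161 and 146 in HFrD. HFrD held the highest library, replicate 1, and the lowest, replicate 4, and the ranges overlapped over most of their length. Chow averaged 155 ± 9.51 CPM (SD, n = 4), and HFrD averaged 162 ± 11.9 CPM (SD, n = 4). HFrD against chow gave a log2 fold change of 0.06 in edgeR, with an SE of 0.11, an adjusted p of 0.742 and a 95% interval from −0.18 to 0.30, or from 0.885-fold to 1.23-fold. The spread between libraries, 6.14% in chow and 7.35% in HFrD, was about that of counting noise alone, 7.30% and 6.62%.

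miR-222-3p, which shares the seed and the precursor transcript with miR-221-3p, was much rarer and did not pass the filter on low counts. Its counts were 6, 6, 12 and 16 in chow, with 12, 5, 4 and 4 in HFrD. They correspond to 4.78, 5.09, 9.33 and 14.2 CPM in chow and to 7.68, 4.28, 2.51 and 3.02 CPM in HFrD. HFrD replicates 2, 3 and 4 lay below all 4 chow libraries, and HFrD replicate 1 lay above chow replicates 1 and 2. Chow averaged 8.36 ± 4.43 CPM (SD, n = 4), and HFrD averaged 4.38 ± 2.33 CPM (SD, n = 4).

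Tested without a filter, where 4.97% of 443 sequences were called, edgeR gave miR-222-3p a value of −0.82 on the log2 scale, with an SE of 0.47, an unadjusted p of 0.0825 and an adjusted p of 0.575. The 95% interval ran from −1.75 to 0.11. DESeq2 gave −0.89 (SE 0.67, unadjusted p = 0.187) and no adjusted p. With 1 library left out it passed the filter in 5 of 8 cases, and adjusted p then ran from 0.219 to 0.488 in edgeR. Unadjusted p was 0.0423 without chow replicate 1 and 0.0471 without chow replicate 2. It did not pass the filter without chow replicate 4, which held its highest count. At 4 to 16 counts per library, no fit gave it an adjusted p under 0.05. What size of difference could be detected was not worked out.

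Counts of miR-221-3p divided by those of miR-222-3p came to 30.7, 29.3, 18.0 and 10.9 in chow and 22.7, 38.6, 64.0 and 48.3 in HFrD. The quotient averaged 22.2 ± 9.43 (SD, n = 4) in chow and 43.4 ± 17.3 (SD, n = 4) in HFrD. The ranges overlapped, and no test was made. Summed over the shared seed, the pair made 163 ± 12.4 CPM (SD, n = 4) of chow libraries and 166 ± 13.7 CPM (SD, n = 4) of HFrD libraries. The passenger arm miR-221-5p had 4 to 7 counts in every library. It made up 2.71% ± 0.677 (SD, n = 4) of both arms in chow and 2.65% ± 0.739 (SD, n = 4) in HFrD, near the median hairpin. For miR-221 the log2 quotient of 5p over 3p was lower in HFrD by a difference of −0.05 (SE 0.31, adjusted p = 0.981, limma), which turned positive in 3 of 8 fits without 1 library. Of the 68 hairpins, 0 (0%) were called for this ratio by limma, with or without a trend, and 2 had an unadjusted p under 0.05. The 5p arm of miR-222 had no row under its name in the count table.

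**Figure D3:**
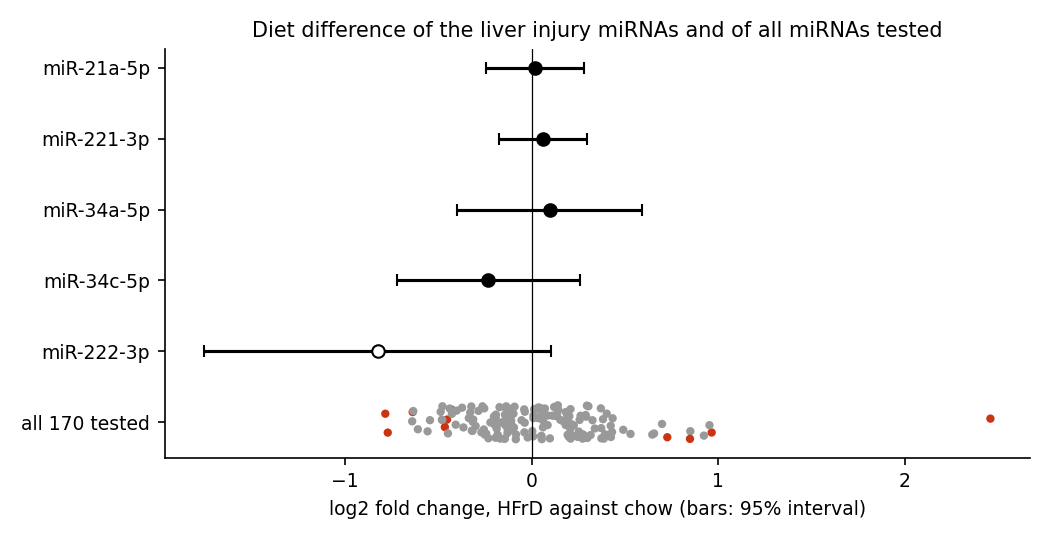
Log2 fold change, HFrD against chow (horizontal axis), of 5 miRNAs with 95% intervals as bars, above the values of all 170 miRNAs tested, in red where the adjusted p was under 0.05. The open circle is miR-222-3p from the fit without a filter, and each of the 5 intervals includes 0.

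Ordered by level, miR-21a-5p stood far above miR-221-3p, which stood above miR-34a-5p and miR-34c-5p, with miR-222-3p and miR-21a-3p below these. The miR-34 pair is the only pair of neighbours in this order whose ranges overlapped within a diet. The mature sequences are all 22 or 23 bases long, and the CPM levels were not corrected for length. A bias of the libraries towards some sequences cannot be judged, so this is an order of counts. By seed, that of miR-21a-5p held 18.4% of all counts, second of 366 seeds. The miR-221 seed held 0.0165%, at rank 41, and the miR-34 seed 0.00435%, at rank 69.

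Over the 8 libraries miR-21a-5p and miR-34a-5p deviated from their own means in like ways, while miR-221-3p and miR-34c-5p differed from them in some libraries. In chow replicate 3, for instance, miR-21a-5p was at −0.26 and miR-34a-5p at −0.23 on the log2 CPM scale, with miR-221-3p at 0.09 and miR-34c-5p at 0.08. HFrD replicate 1 was lowest of all for miR-21a-5p (−0.39 on the log2 CPM scale from its own mean), miR-34a-5p (−0.34) and miR-34c-5p (−0.18), and highest of all for miR-221-3p (0.14). This library also had the highest TMM factor, 1.13, and over library totals it was lowest for none of the 3. Chow replicate 4 had the lowest TMM factor, 0.894. There miR-34a-5p was highest (0.41) and miR-21a-5p was at 0.19, against −0.16 for miR-34c-5p. The part of scaling in these patterns was not tested.

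**Figure D4:**
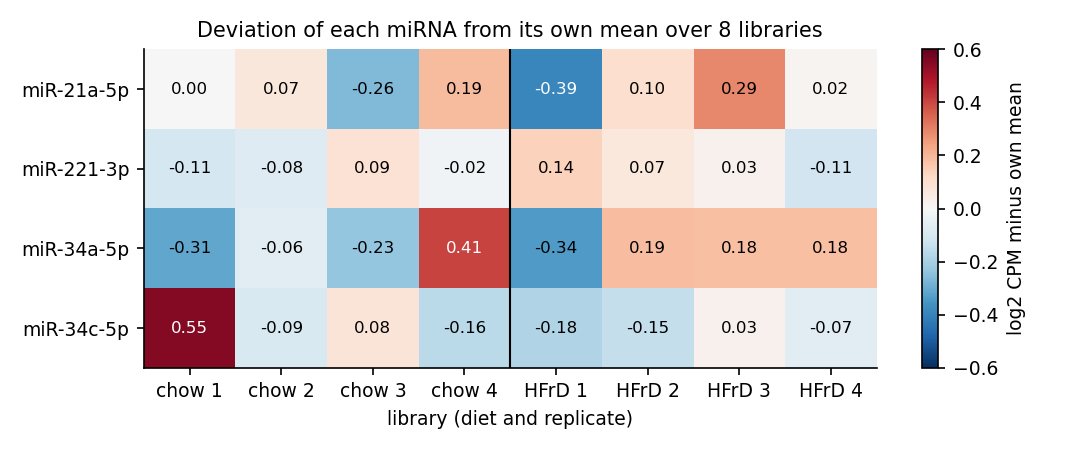
Deviation of log2 CPM from the miRNA's own mean over 8 libraries (colour and printed value) for 4 miRNAs in rows and the libraries in columns, chow left of the line. Some columns mix signs, as in HFrD replicate 1 with −0.39 for miR-21a-5p and 0.14 for miR-221-3p.

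The nearest patterns in the table were found by the root mean square difference of log2 CPM around each miRNA's own mean, over the 8 libraries. For miR-21a-5p they were miR-194-5p (0.12), miR-29a-3p (0.12) and miR-10b-5p (0.14), against a median of 0.30 over the miRNAs tested. miR-34a-5p was nearest to miR-361-3p (0.15), miR-101b-3p (0.16) and miR-21a-5p (0.16), with a median of 0.32. For miR-34c-5p they were miR-871-3p (0.15), miR-148a-5p (0.16) and miR-146b-5p (0.17), with a median of 0.34. miR-221-3p was nearest to miR-30c-5p (0.07), miR-139-5p (0.10) and miR-26a-5p (0.10), with a median of 0.28. All of these values share the 8 libraries and their scaling.

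Other miRNAs of the same processes were taken from a pair of lists. Of 14 miRNAs known to be regulated by p53, 9 were tested, and edgeR called 0 of these 9, beside 5.88% of all tested. DESeq2 called 0 as well, and 2 of the 9 had an unadjusted p under 0.05, beside 23.5% of all tested. The median log2 fold change of the 9 was −0.08 and changed sign, to 0.03, with library totals or upper quartile factors. The median over all tested rose as well, from 0.01 to 0.13 with library totals and to 0.12 with upper quartile factors. The most abundant members were miR-192-5p (log2 fold change 0.01, SE 0.085, adjusted p = 0.936), miR-143-3p (−0.09, SE 0.097, adjusted p = 0.547), miR-194-5p (−0.14, SE 0.11, adjusted p = 0.479) and miR-107-3p (0.37, SE 0.16, adjusted p = 0.157, all edgeR). miR-107-3p, encoded within a pantothenate kinase gene, measured 104 ± 13.7 CPM (SD, n = 4) in chow livers and 135 ± 28.4 CPM (SD, n = 4) in HFrD livers. It was called as higher under 4 of 17 alternatives, among them library totals (0.49, adjusted p = 0.0355, edgeR) and no filter (0.44, adjusted p = 0.0439, edgeR). The other with an unadjusted p under 0.05, miR-16-5p, named here after its values were seen, had a log2 fold change of −0.61 and was called as lower under 4 other alternatives.

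Of 27 miRNAs known from liver injury and fibrosis, which include miR-21a-5p, miR-34a-5p, miR-221-3p and miR-222-3p, 19 were tested. In edgeR 1 fell and 0 rose, where 3.53% and 2.35% of all tested did, and 3 of the 19 had an unadjusted p under 0.05, beside 23.5% of all tested. The median log2 fold change of the 19 was 0.03, with 12 positive and 7 negative values, against 89 and 81 over all tested. The miRNA that fell was miR-27b-3p, known to target genes of lipid handling, whose level fell from 8518 ± 1286 CPM (SD, n = 4) to 6225 ± 127 CPM (SD, n = 4). Its log2 fold change was −0.45 (SE 0.099) with an adjusted p of 0.0123 in edgeR. It was not called with upper quartile factors or without chow replicate 2. Of the other abundant members, miR-122-5p was at −0.26 (SE 0.097, adjusted p = 0.0987, edgeR) and was called without HFrD replicate 1 (−0.34, adjusted p = 0.0132). miR-30c-5p was at 0.03 (SE 0.086, adjusted p = 0.801, edgeR). miR-378a-3p, named here after its values were seen, was at 0.32 (SE 0.10, adjusted p = 0.0585, edgeR). It was called as higher with library totals (0.44, adjusted p = 0.0156, edgeR), DESeq2 (0.33, adjusted p = 0.0489) and no filter (0.38, adjusted p = 0.0108, edgeR). So it was with limma on the authors' normalized score, without predicted sequences and without HFrD replicate 2. The other alternatives did not call it.

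For scale, the 10 miRNAs called among the 170 had log2 fold changes of at least 0.43 in size, a 1.35-fold change. With TMM factors, the 95% intervals of miR-21a-5p, −0.25 to 0.28, and of miR-221-3p, −0.18 to 0.30, lay within that size in both directions. The interval of miR-34a-5p, −0.40 to 0.59, passed that size on the higher side only, and that of miR-34c-5p, −0.72 to 0.26, on the lower side only. The intervals depended on the scaling. With upper quartile factors they reached 0.51 for miR-21a-5p and 0.46 for miR-221-3p, both past 0.43. With library totals they reached 0.33 for miR-21a-5p, within that size, and 0.45 for miR-221-3p, past it.

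**Figure D5:**
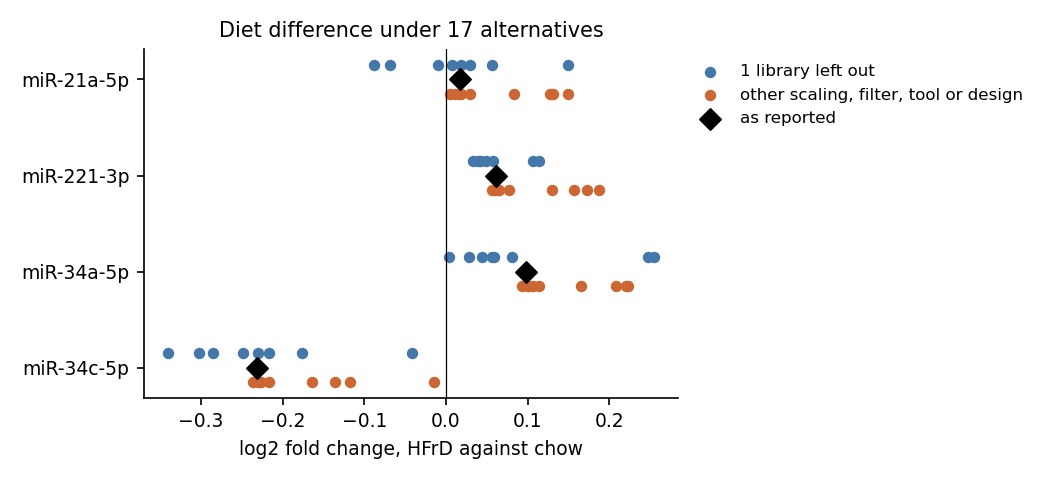
Log2 fold change, HFrD against chow (horizontal axis), of 4 miRNAs as reported (diamond), with 1 library left out (blue) and under other scalings, filters, tools or designs (orange). Only miR-21a-5p crosses 0, with values from −0.09 to 0.15, and miR-34c-5p runs from −0.34 to −0.01.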

How the data were processed

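Raw tag counts per mature miRNA were deposited by the authors for 4 chow and 4 HFrD livers, per the file headers. The submitters' processing notes list cutadapt 1.9.2, Novoalign 3.02.12 and the build mm10. The labels' protocols describe a stranded library from total RNA freed of ribosomal RNA. The sources used here do not give how small RNA was selected, which miRNA release served as reference or how reads with several matches were counted, so a bias towards some sequences cannot be judged. A normalized score was also deposited by the authors: each count divided by a number constant within a library (4.21 to 6.19) and rounded.

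Entries (484) were merged by sequence into 443. edgeR 4.0.16 in R 4.3.3 tested diet by quasi-likelihood, two-sided, with TMM factors, filterByExpr (minimum count 10) and Benjamini-Hochberg adjustment over 170 sequences, which held 99.96% of counts. Intervals are 95%. Arm ratios, log2 of CPM plus 0.5, were tested with limma 3.58.1. DESeq2 1.42.0 was an alternative. Log2 patterns used a prior count of 2. The fits were tested on simulated data. Precursors came from RefSeq (GRCm38.p6) and GENCODE M21, the assembly behind mm10. All 6 names were matched in the table. The miRNAs and lists were chosen with earlier results of these data known. Named were the 6, their other arms and seed mates, each list's called and 4 most abundant miRNAs, and the 3 nearest patterns of each tested one, chosen by rule. Numbers of replicates were not used to pair samples.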

Additional observations from a re-analysis of the deposited data

Results flagged for a closer look

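In HFrD, replicate 1 lay far from the other 3 libraries for miR-34a-5p, at 17.9 CPM against 26.4 to 26.5 CPM. The gap was 0.982 of the group's range, above the limit of Dixon's test at 4 samples. The same library was lowest for the summed level of miR-34a-5p, miR-34c-5p and miR-449a-5p, at 34.6 CPM, with a gap of 0.868 of the range. The second value contains the first. Of 18 such group checks 2 were past the limit, where chance gives about 1 in 20. For these levels the check was made on the TMM scale only, and this library had the highest TMM factor, 1.13. Over library totals the miR-34a-5p value was 20.2 CPM against 25.6 to 27.7 CPM, a narrower gap to which Dixon's test was not applied.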

How the results depend on the processing

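Under each of 17 alternatives, the count of called miRNAs among the 6 stayed at 0. Of 68 recomputed log2 fold changes of the 4 tested miRNAs 65 kept their direction, and none passed the threshold (for miR-34c-5p, DESeq2 gave no adjusted p). The other 3 belonged to miR-21a-5p: leaving out chow replicate 3 gave −0.07, HFrD replicate 2 gave −0.01 and HFrD replicate 3 gave −0.09. Over all alternatives it ran from −0.088 to 0.15, miR-34a-5p from 0.00 to 0.25, miR-34c-5p from −0.34 to −0.01 and miR-221-3p from 0.03 to 0.19. The arm-ratio difference of miR-221 ran from −0.19 to 0.10 with 1 library left out, and was positive without chow replicate 1 (0.10), HFrD replicate 1 (0.04) or HFrD replicate 3 (0.08). Over all miRNAs, 10 were called, against 23 with library totals, 1 with upper quartile factors, 22 without a filter, 20 with limma on the authors' normalized score plus 1 and 17 without predicted sequences. Leaving out 1 library gave 1 (without chow replicate 2) to 17 (without chow replicate 3), and 6 without HFrD replicate 4. With library totals and without a filter, 1 p53-regulated miRNA was called against 0. In the injury list 2 were called with library totals, DESeq2 or no filter and 0 with upper quartile factors, against 1, and its median was 0.16, 0.15 and 0.10 with library totals, upper quartile factors and no filter, where the median of all miRNAs was 0.13, 0.12 and 0.08. Same-numbered samples deviated together (correlation over 0.1) in 1 of 4 pairs. So few pairs cannot settle whether the numbers pair the samples. With the replicate block 15 miRNAs were called, 0 among the 6, and 2 of 8 samples correlated best with their own number. Depth limits miR-34a-5p, miR-34c-5p and miR-222-3p, at 4 to 42 counts per library.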
